A study of Mus musculus with 8 samples.

Results

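The large subunit of the cytosolic ribosome carries about the same protein set in every cell type, and the genes of that set were followed here across 8 bulk RNA-seq libraries of sorted mouse haematopoietic stem cells (HSCs). A gene was a member when its annotated symbol was Rpl followed by a number (with an optional a or l and a further number) or was Rplp0, Rplp1 or Rplp2, and when it was annotated as protein-coding. Of 53 matching symbols, 2 (Rpl6l and Rpl32l) are processed pseudogenes, which left 51 members among the 55487 gene rows. The rule uses gene names and no measured value.

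The 4 libraries labelled miR652-KD came from HSCs with a knockdown of the microRNA miR-652, and the 4 labelled NTC came from HSCs with a non-target control. The series title places the study in the ageing of HSCs and in the enzyme pseudouridine synthase 10. The labels name mouse as the organism and give no strain, age, knockdown method or sort markers, and they do not say whether replicates were separate animals, so the p-values reflect library-to-library spread, part of which may be technical. Both groups were made with Smart-seq2, which copies and amplifies full-length cDNA from small numbers of cells before fragmentation with the transposase Tn5. All 12 genes of a list used to define or subdivide HSCs were detected, with summed levels of 2318 to 2600.1 CPM (counts scaled to a common total of gene counts per library) in miR652-KD and 2596 to 3032 CPM in NTC libraries (a gene was called at an adjusted p below 0.05; 0 called by edgeR, 2 by DESeq2, 4 at an unadjusted p below 0.05). The list includes Cd34, Cd48 and Flt3, which are low or absent on long-term HSCs. Its genes differed in direction, since Cd34 lay at 253 to 342 CPM in miR652-KD and 506 to 521 CPM in NTC, and Ly6a at 316 to 490 CPM in miR652-KD and 240 to 296 CPM in NTC libraries.

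Reads assigned to genes numbered 14677644 to 19894821 in miR652-KD and 14017632 to 16763709 in NTC libraries. The protocol copies polyadenylated RNA and not mature microRNAs, and the Mir652 row held 0.341, 0, 0 and 0 CPM in miR652-KD, against 0.0673, 0, 0 and 0.137 CPM in NTC, so the counts offer no check of the knockdown. Of the erythroid genes, haemoglobin Hba-a1 had 2.18, 37.2, 65.8 and 1239 CPM in miR652-KD, against 1013, 2575, 1247 and 2298 CPM in NTC, and Hbb-bs had 4.497, 22.1, 63.8 and 664 CPM in miR652-KD, against 946, 1372, 624 and 1091 CPM in NTC. Car2 made up much of the erythroid sum, at 1760 to 2216 CPM in miR652-KD and 1298 to 2169 CPM in NTC libraries. Erythroid markers summed to 1798 to 4552 CPM in miR652-KD and 4191 to 7904 CPM in NTC (11 of 12 found; 0 called by edgeR, 1 by DESeq2, 2 at an unadjusted p below 0.05). Neutrophil markers summed to 626 to 5490.4 CPM in miR652-KD and 570.1 to 15626 CPM in NTC (10 listed; 0 called by edgeR, 3 by DESeq2, 4 at an unadjusted p below 0.05). NTC replicates 3 and 4 stood apart in Ngp, Camp, Ltf, Lcn2, S100a8 and S100a9, and not in Elane, Mpo, Ctsg or Prtn3. Elane had 1920, 4.317, 0.1005 and 9.868 CPM in miR652-KD, against 0.4708, 982.6, 1311 and 2535 CPM in NTC. Ngp lay at 3.12 to 24.7 CPM in miR652-KD, against 0.336, 1.93, 2413 and 3623 CPM in NTC, and S100a8 at 4.33 to 36.4 CPM in miR652-KD, against 2.89, 23.3, 1547 and 1968 CPM in NTC. Macrophage and dendritic markers summed to 2749 to 3210.2 CPM in miR652-KD and 1636 to 3392 CPM in NTC. Of 10 listed, 5 were tested, and 3 were called by edgeR, all higher in miR652-KD (Cd74, H2-Aa and H2-Eb1). DESeq2 called 4, and 4 had an unadjusted p below 0.05. Lyz2 had 761.8, 943.6, 747.7 and 822.6 CPM in miR652-KD, against 681.3, 810.8, 1511 and 2184 CPM in NTC. Cx3cr1 was at 0 everywhere. T and NK markers summed to 120.0 to 238 CPM in miR652-KD and 155 to 457 CPM in NTC, with Cd3e, Cd3g and Ncr1 of 7 at 0 everywhere. B-lymphoid markers (8) lay at 49.2 to 93.9 CPM in miR652-KD and 48.8 to 135 CPM in NTC, and megakaryocyte markers (6) at 289 to 468 CPM in miR652-KD and 282 to 475 CPM in NTC. Of the last 3 lists, 1 T and NK marker, 2 B-lymphoid markers and 6 megakaryocyte markers passed the filter and were tested. Of these, 0 were called by edgeR and by DESeq2, and 2 had an unadjusted p below 0.05. The part of these other cells in the results that follow was not tested, and in bulk libraries fewer cells of a type and less RNA per cell cannot be told apart.

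The large subunit forms the peptide bond and houses the tunnel through which the new chain leaves. Its proteins are imported into the nucleolus, built onto ribosomal RNA and exported as a pre-60S particle, and most are present once per ribosome. Their mRNAs begin with a terminal oligopyrimidine (TOP) tract, a run of C and T bases at the transcript start through which mTOR signalling and the protein Larp1 set their translation. HSCs are known for a low rate of protein synthesis, and in humans the loss of one copy of any of several of these genes causes Diamond-Blackfan anaemia, a failure of red cell production.

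The start regions of member genes are shown first, because the TOP tract and factor sites are sequence features that many of these genes share. RefSeq promoter records (GRCm38.p6, 250 bases before to 50 after each start) matched 39 of the 51 members, with 46 start sites. The windows below run from 40 bases before to 20 bases after the start, in the direction of transcription. Capitals mark CTTTC read in the direction of the gene, a pyrimidine core often found in TOP tracts, and CGGAAG on either strand, the core bound by ETS factors such as Gabpa. Where copies of a motif overlap or adjoin, the capitals run on. Each window shown holds at least 1 of these motifs, while other member windows, such as those of Rplp0, Rpl10 and Rpl14, hold neither. In Rpl13 the marked CTTTC lies wholly before the annotated start.
Rpl38, chr11:114668540-114668599, plus strand: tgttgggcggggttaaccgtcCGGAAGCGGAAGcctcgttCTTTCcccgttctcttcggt
Rpl37, chr15:5116573-5116632, plus strand: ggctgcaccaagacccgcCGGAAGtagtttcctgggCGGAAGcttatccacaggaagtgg
Rpl35, chr2:39005112-39005171, minus strand: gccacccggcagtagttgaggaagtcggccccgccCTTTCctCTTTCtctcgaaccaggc
Rpl28, chr7:4792925-4792984, plus strand: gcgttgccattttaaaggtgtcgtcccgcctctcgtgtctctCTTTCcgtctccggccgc
Rplp2, chr7:141447611-141447670, plus strand: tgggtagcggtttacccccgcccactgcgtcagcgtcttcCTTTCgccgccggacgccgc
Rpl7a, chr2:26910767-26910826, plus strand: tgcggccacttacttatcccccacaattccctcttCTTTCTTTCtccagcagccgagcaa
Rpl13, chr8:123102310-123102369, plus strand: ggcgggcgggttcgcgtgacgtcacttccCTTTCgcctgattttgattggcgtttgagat

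CTTTC in the sense direction, from 30 bases before to 50 after the start, stood in 25 of 46 member start regions (54.3%), against 10.3% of all 32851 promoters of the table. Over the whole 300 bases and both strands, CTTTC stood in 82.6% of member promoters, against 57.3% of all promoters. The ETS core CGGAAG, on either strand like the motifs that follow, stood in 52.2% of member promoters, against 16.9% of all, and in 70.0% of 30 start regions of small-subunit genes. The YY1 core AAGATGGC stood in 13.0% of member promoters, against 2.75% of all, and the Sp1 site GGGCGG in 63.0%, against 35.7%. The TATA box letters TATAAA stood in 10.9% of member promoters, against 13.6% of all, while in the sense direction from 30 bases before to 50 after the start they stood in 6.52% of member promoters, against 2.32% of all. Of the windows shown, Rpl38 held both of the marked motifs, Rpl37 held CGGAAG alone, and the other windows held CTTTC alone. These matches describe the letters of the windows and not binding.

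Members differed widely in abundance, with 2 at 0 counts in every library (Rpl10l and Rpl39l), Rpl3l at 0 in 7 of 8, and Rpl24 at 4 to 19 counts in miR652-KD and 8 to 30 in NTC libraries. Ranked by mean CPM over the 8 libraries among 23457 genes with at least 1 count, 9 members stood in the top 50, 18 in the top 100, 26 in the top 200, 38 in the top 500 and 42 in the top 1000. Rplp0 (chr5:115559467-115563727, plus strand, GRCm38), the base of the P stalk that recruits translation factors, was the highest member at rank 9. It had 4868, 5015, 4697 and 4690.1 CPM in the 4 miR652-KD libraries, against 4538, 4776, 4712 and 4049 CPM in the 4 NTC libraries. Rpl13 (rank 10), Rpl4 (rank 14) and Rpl3 (rank 18) were also among the highest members.

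**Figure D1:**
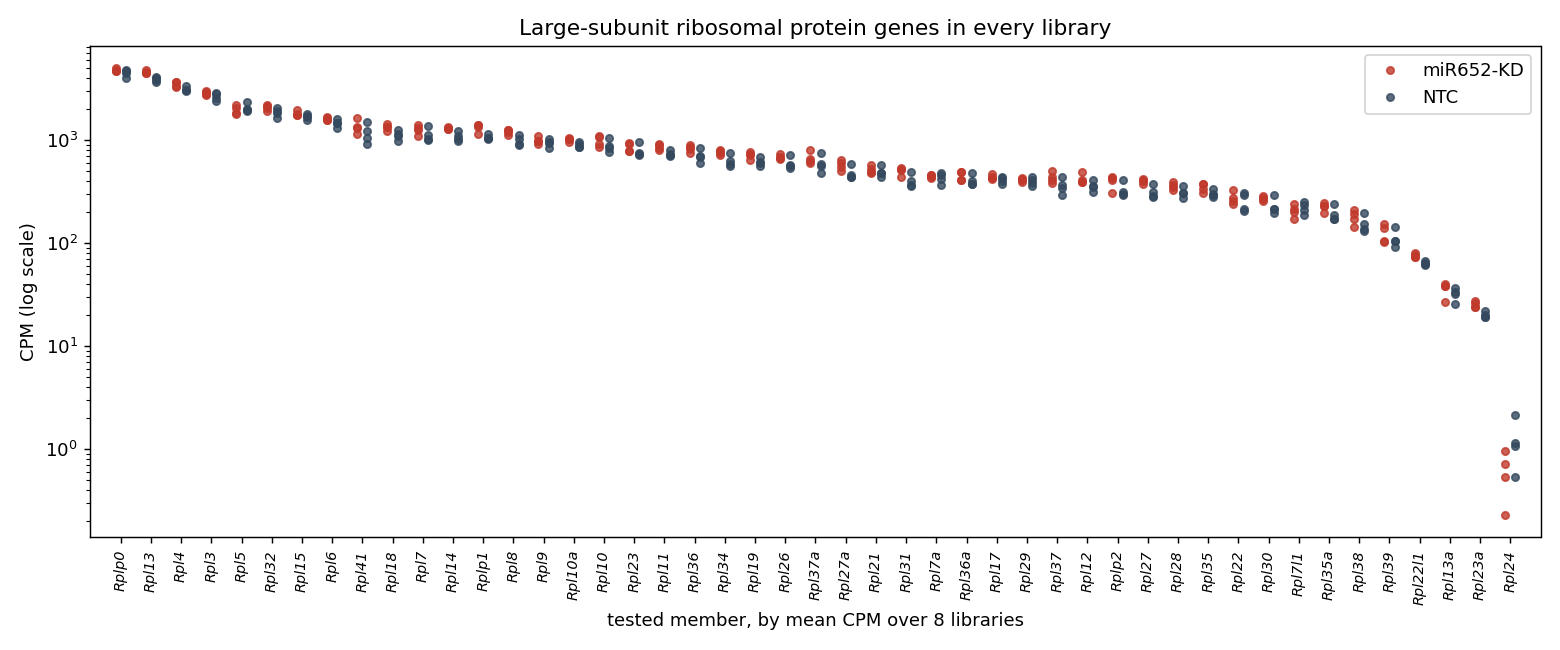
CPM of 47 of the 48 tested members in every library, on a log axis, ordered by mean CPM; each point is a library, with miR652-KD left of NTC for each gene. Levels run from a mean of 4668 CPM for Rplp0 to about 1 CPM for Rpl24, and for most genes the points of the groups overlap.

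Counts also depend on transcript length, so levels of different genes were compared per kilobase of the reference transcript, as mean CPM per kb. The median was 977 CPM per kb over 44 tested members, those sharing at most 50% of reference transcript bases with exons of other genes. Of these, 37 lay between 300 and 3000 CPM per kb. The median over 11654 tested protein-coding genes, none of them left out for overlap, was 11.8 CPM per kb. Rpl13 was highest at 5485 CPM per kb, and Rpl32 at 3823, Rplp0 at 3438 and Rpl41 at 2903 CPM per kb were also among the highest. With merged exons of all isoforms as the length (TPM, which scales the per-length values to a fixed total), the highest members included Rplp0 (7434 TPM), Rplp1 (6349 TPM), Rpl32 (5420.4 TPM) and Rpl36 (5325 TPM), so the top of the order depends on which length is used.

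The 3 lowest tested members each share over 50% of the reference transcript with exons of other annotated genes. HTSeq by default sets aside reads that fall in exons of more than 1 gene (the mode used is not given in the sources used here), and the summary lines hold 11.1 to 11.9% such ambiguous reads in miR652-KD and 8.94 to 12.3% in NTC libraries. Rpl24 (chr16:55966275-55971435, plus strand, GRCm38), whose mutation causes the belly spot and tail mouse, shares 71.5% of its reference transcript with exons of other genes. By merged exons its largest overlap was with Gm28037 on the same strand, and Rpl24 averaged 1.36 CPM per kb. Its libraries held 0.545, 0.730, 0.955 and 0.231 CPM in miR652-KD, against 0.538, 2.14, 1.07 and 1.16 CPM in NTC, while Gm28037 had 0 counts in all 8. Rpl13a (chr7:45125558-45128761, minus strand) shares 59.3% of its reference transcript with exons of other genes, and averaged 32.7 CPM per kb. In human cells its protein is released from the ribosome to silence inflammatory mRNAs. By merged exons the largest overlap of Rpl13a was with Gm45713 on the same strand, also at 0 counts in all 8 libraries.

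Rpl23a (chr11:78180932-78183584, minus strand), a docking site for the signal recognition particle at the tunnel exit, averaged 40.9 CPM per kb. It shares 55.4% of its reference transcript with exons of other genes, with Tlcd1 on the opposite strand the largest by merged exons. Rpl35, also at the tunnel exit, averaged 345 CPM per kb. It shares 68.3% with exons of other genes, with Wdr38 on the opposite strand the largest by merged exons. Tlcd1 and Wdr38 themselves averaged 5.70 and 5.17 CPM. Rpl5 shares 46.6% with exons of other genes, with Fam69a on the opposite strand the largest by merged exons. It averaged 986 CPM per kb, close to the median. Overlap and a low level thus went together for Rpl24, Rpl13a and Rpl23a and not for Rpl5. Rpl35 overlaps more than Rpl13a and Rpl23a, yet lay at 345 CPM per kb. The part of overlap in the low levels was not tested.

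**Figure D2:**
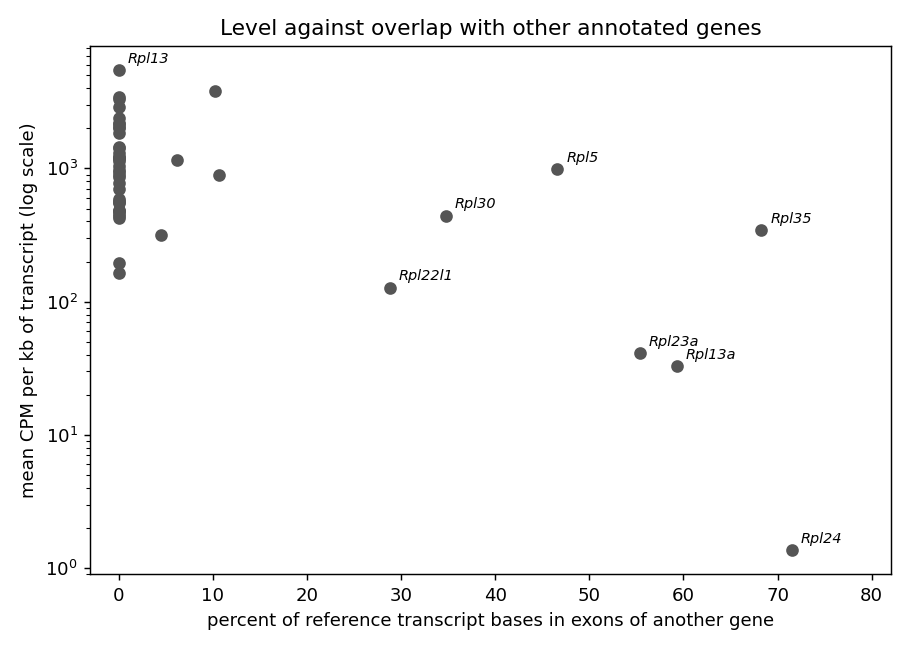
Mean CPM per kb of reference transcript (log axis) of the 48 tested members against the percent of transcript bases that lie in exons of another annotated gene; each point is a gene. The 3 members below 100 CPM per kb, Rpl24, Rpl13a and Rpl23a, all have over 50% overlap, while Rpl35 and Rpl5 overlap at 68.3% and 46.6% and lie at 345 and 986 CPM per kb.

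Processed pseudogenes are the other source of uncertainty in these counts. Of the 51 members, 49 share at least 1 stretch of 50 bases with an annotated pseudogene elsewhere. In the median member, 54.5% of such stretches occur in a transcript of any gene elsewhere, pseudogene or not. The line for reads without a unique alignment is at 0 in every file, and how reads that align equally well to a member and a copy were handled is not given in the sources used here. Annotated copies together held 0.420 to 0.470% of gene counts in miR652-KD and 0.379 to 0.444% in NTC libraries. Among single copies, Rpl14-ps1, a copy of Rpl14, averaged 353 CPM. The counts of Rpl14 and other members with such copies are therefore uncertain.

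The members include 5 paralogs, and those with tissue-restricted expression had few or no reads in HSCs. Rpl10l, which replaces the X-linked Rpl10 during male meiosis, and Rpl39l, found in testis, had 0 counts in all 8 libraries, which allows up to 0.151 to 0.204 CPM in miR652-KD and 0.179 to 0.214 CPM in NTC libraries (3 counts per library, counting error only). Rpl3l, the heart and skeletal muscle form of Rpl3, had 29 counts (1.98 CPM) in miR652-KD replicate 1 and 0 counts in the 7 other libraries. Their parents were well covered. Rpl10, which closes the subunit late in its maturation, averaged 995 ± 122 CPM in miR652-KD and 889 ± 119 CPM in NTC, Rpl39 126 ± 24.8 CPM in miR652-KD and 112 ± 22.7 CPM in NTC, and Rpl3, close to the peptide-bond-forming centre, 2884 ± 124 CPM in miR652-KD and 2683 ± 220.5 CPM in NTC (SD, n = 4 each).

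The Rpl39 pair is printed because it is the closest of the 5 by base identity and reads could be confused between them. The coding sequences (GRCm38, 153 bases each) are identical at 130 positions, and capitals mark the 23 bases that differ between the paralog and its parent.
Rpl39l, chromosome 16, plus strand: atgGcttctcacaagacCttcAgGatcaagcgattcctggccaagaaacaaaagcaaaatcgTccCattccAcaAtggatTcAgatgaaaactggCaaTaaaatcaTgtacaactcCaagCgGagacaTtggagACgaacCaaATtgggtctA
Rpl39, chromosome X, minus strand: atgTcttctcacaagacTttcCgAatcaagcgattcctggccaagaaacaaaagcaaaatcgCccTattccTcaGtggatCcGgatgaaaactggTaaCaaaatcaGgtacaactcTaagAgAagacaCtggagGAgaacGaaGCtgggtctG
The longest run without a difference is 38 bases, so a read of 50 bases inside the coding sequence covers at least 1 differing base, while the read length is not given in the sources used here. For the other pairs identity was 84.7% for Rpl10l with Rpl10, 74.1% for Rpl3l with Rpl3, 70.2% for Rpl22l1 with Rpl22 and 56.0% for Rpl7l1 with Rpl7.

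The 2 paralogs that were read in every library were Rpl22l1 and Rpl7l1. Rpl22l1, whose mRNA is held down by Rpl22 in mouse cells, had 80.8, 74.5, 73.5 and 77.8 CPM in miR652-KD, against 63.3, 66.8, 61.9 and 64.0 CPM in NTC. All 4 miR652-KD values lay above all 4 NTC values, with a log2 fold change of 0.26 (SE 0.13, edgeR quasi-likelihood test with Benjamini-Hochberg adjusted p = 0.868), which is not past the threshold of 0.05. Its parent Rpl22, needed for T-cell development in mice, had 274, 256, 329 and 242 CPM in miR652-KD, against 310.5, 295, 216 and 206 CPM in NTC, and the groups overlapped. Its log2 fold change of 0.10 (SE 0.16) became −0.13 without NTC replicates 3 and 4. Rpl7l1, a factor of early pre-60S particles, averaged 209 ± 27.7 CPM in miR652-KD and 221 ± 27.8 CPM in NTC (SD, n = 4 each), with the groups overlapping.

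Across the 8 libraries the members varied about as much as other genes of similar rank. Among the 200 genes of highest mean CPM the median coefficient of variation (SD over mean, all 8 libraries) was 11.1% for 26 members and 11.1% for the 174 other genes, and among the highest 500 it was 11.6% for 38 members and 12.05% for the 462 others. The 44 members with at least 100 CPM had coefficients of variation from 6.14 to 19.5%, with a median of 11.9%. All 44 lay below 20%, against 77.0% of the 2213 other genes with at least 100 CPM, whose median was 15.3%, but which are mostly less abundant than the members. The median was 11.1% for the 33 small-subunit genes and 17.6% for 48 tested genes of the mitochondrial large subunit. Rplp0 (6.14%), Rpl17 (6.61%) and Rpl29 (6.69%) varied least. Rpl24 (63.1%), Rpl39 (19.5%) and Rpl41 (18.7%) varied most among tested members.

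Rpl41 is the smallest protein of the ribosome, and its whole coding sequence of 75 bases is shown because coding length is the feature along which variability was ordered.
Rpl41, chromosome 10, minus strand: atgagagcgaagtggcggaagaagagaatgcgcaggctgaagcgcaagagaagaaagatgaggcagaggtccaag
It had 1635, 1320.2, 1346 and 1152 CPM in miR652-KD, against 1229.8, 1510.0, 1044 and 914 CPM in NTC, and the groups overlapped. Across the 44 members with at least 100 CPM the coefficient of variation had a Pearson correlation of −0.75 with log2 coding length, a description across genes that share the same libraries. The 24 tested members with coding sequences of up to 475.5 bases, the median length, had a median coefficient of variation of 14.5%, and the 24 longer ones 9.16%.

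The libraries differed in how short and long members deviated. In miR652-KD replicates 1 to 4 the median deviation of the short members from their own means was 0.21, 0.08, 0.21 and −0.05 log2 CPM, and in NTC replicates 1 to 4 it was −0.16, 0.16, −0.17 and −0.27 log2 CPM. For the long members it was 0.08, 0.04, 0.14 and 0.04 in miR652-KD, and −0.19, 0.05, −0.07 and −0.10 in NTC. Short members thus lay further above their means than long ones in miR652-KD replicates 1, 2 and 3 and in NTC replicate 2, and further below in NTC replicates 3 and 4. The correlation of deviation with log2 coding length over 44 members ran from −0.706 in miR652-KD replicate 1 to 0.574 in miR652-KD replicate 4, and from −0.552 in NTC replicate 2 to 0.717 in NTC replicate 4. Both signs occurred in each group.

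**Figure D3:**
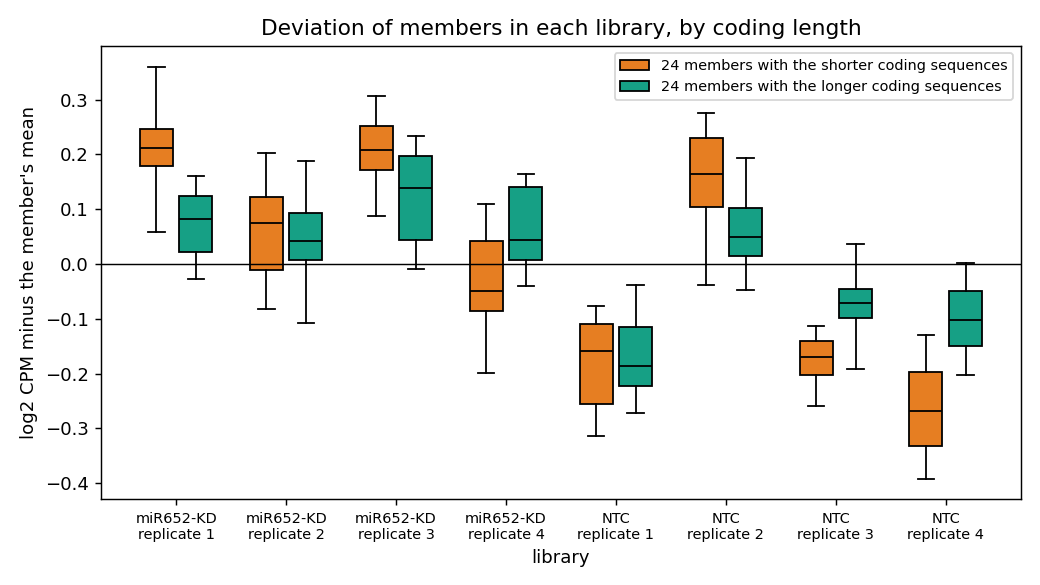
Deviation of each member from its own mean log2 CPM over the 8 libraries, by library, miR652-KD left of NTC, for the 24 tested members with the shorter and the 24 with the longer coding sequences; boxes span the quartiles, lines mark medians and whiskers reach the 5th and 95th percentiles, with members beyond them (among them Rpl24) not drawn. Short members lie highest in miR652-KD replicates 1 and 3 and NTC replicate 2, and lowest in NTC replicates 3 and 4.

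The comparison of miR652-KD with NTC asks whether these mRNAs differ when miR-652 is reduced. Together the 51 members took 5.27, 4.99, 5.24 and 4.98% of gene counts in miR652-KD, against 4.32, 5.07, 4.54 and 4.34% in NTC. The means were 5.12% ± 0.159 in miR652-KD and 4.57% ± 0.347 in NTC (SD, n = 4 each). NTC replicate 2 lay inside the range of the miR652-KD libraries and the 3 other NTC libraries lay below it, so the groups overlap. The 33 small-subunit genes gave 4.26, 4.11, 4.34 and 3.93% in miR652-KD, against 3.53, 4.17, 3.70 and 3.58% in NTC, and the ratio of large to small stayed between 1.21 and 1.27 in miR652-KD and between 1.21 and 1.23 in NTC. The 49 mitochondrial large-subunit genes took 0.385 to 0.419% in miR652-KD and 0.341 to 0.415% in NTC.

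**Figure D4:**
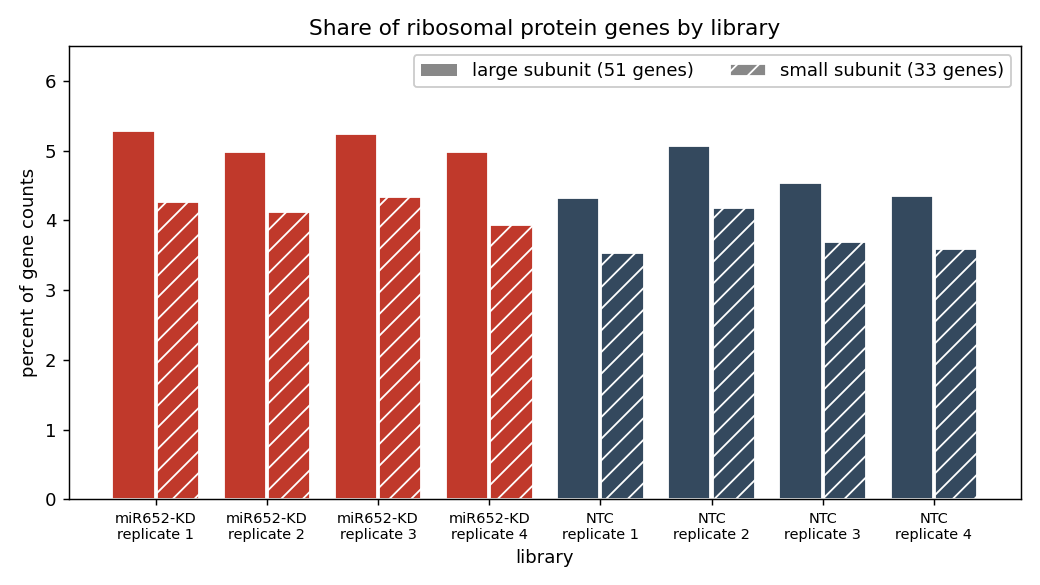
Percent of all gene counts in each library taken by the 51 large-subunit and the 33 small-subunit genes, miR652-KD left of NTC; each bar is 1 library. NTC replicate 2, at 5.07% for the large subunit, lies among the miR652-KD libraries (4.98 to 5.27%), and the other NTC libraries lie at 4.32 to 4.54%.

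Gene by gene, no member passed the test. Of the 48 members tested, 0 were called at an adjusted p below 0.05, against 6 of 14360 genes (0.0418%) in the whole fit (4 higher and 2 lower), and the smallest adjusted p among members was 0.681 (edgeR quasi-likelihood test, Benjamini-Hochberg). DESeq2 also called 0 members, of 61 genes called in all, and the 6 calls of edgeR became 0 when any single library was left out. At an unadjusted p below 0.05, 13 members (27.1%) were higher in miR652-KD and 0 lower, against 2.9% of all tested genes higher. That number of members depended on single libraries. It was 32 without NTC replicate 2, where 992 of 15031 tested genes had an unadjusted p below 0.05 in either direction. It was between 7 and 10 without miR652-KD replicate 1, 2 or 3 or NTC replicate 1, 3 or 4. In those fits 789 to 902 of 14907 to 15065 tested genes had such a p. Without miR652-KD replicate 4 it was 15, against 853 of 14936 tested genes. Without NTC replicates 3 and 4 together it was 2 of 48, against 884 of 15972 tested genes. The median log2 fold change was 0.19 over the members, with 45 above 0 and 3 below, and −0.004 over all tested genes, of which 49.5% were above 0. Without NTC replicates 3 and 4, the libraries with high Ngp and S100a8, the median of the members was 0.13. In 8 members (16.7%) all 4 miR652-KD values exceeded all 4 NTC values, against 2.35% of all tested genes, and in 0 members did they all lie below, against 2.15%. On TMM-scaled CPM the members without overlap numbered 5, against 2.26% of all tested genes. The members vary together from library to library, so they are not independent of each other.

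**Figure D5:**
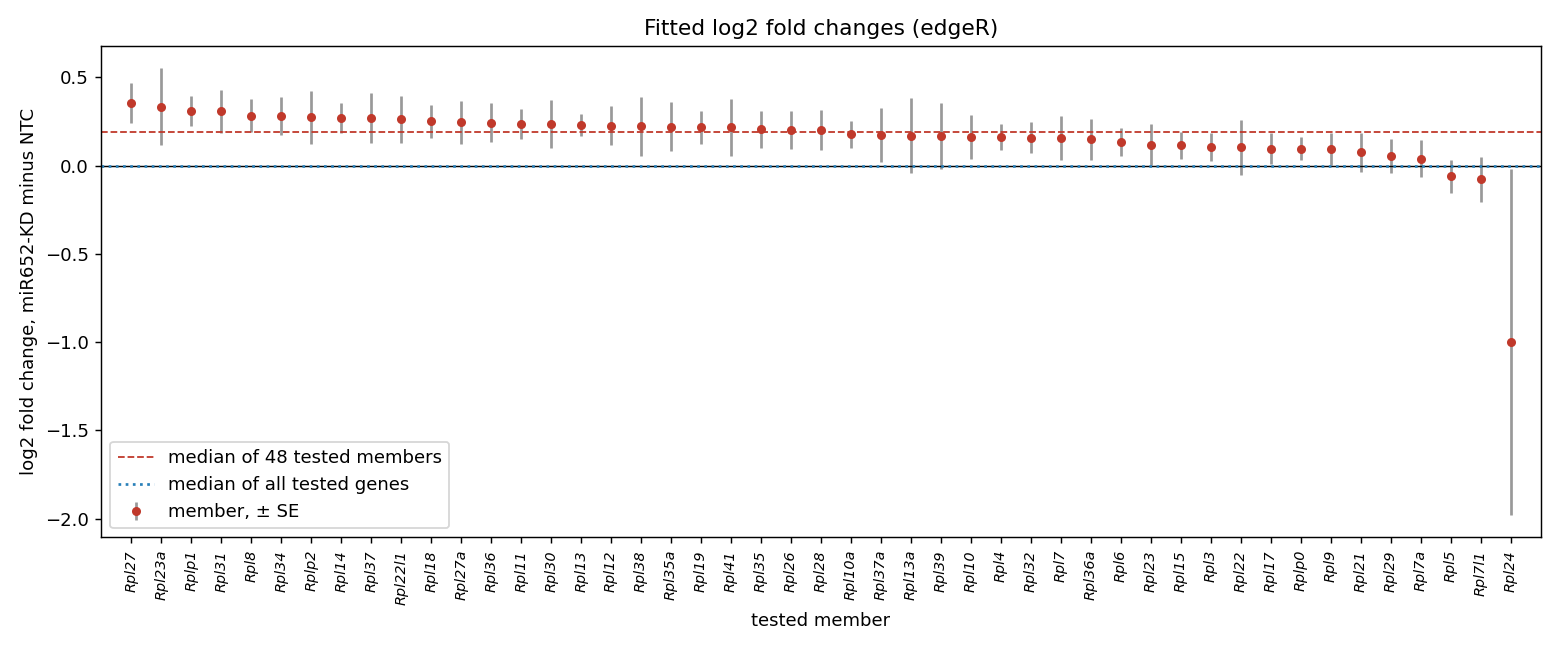
Fitted log2 fold change, miR652-KD minus NTC, with its SE, for 47 of the 48 tested members in descending order; dashed and dotted lines mark the medians of the members (0.19) and of all tested genes (−0.004). All but Rpl24 lie between −0.08 and 0.36, and Rpl24 lies at −0.998 with an SE of 0.981.

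The libraries at the ends were few. The highest value of a member was in miR652-KD replicate 3 for 20 members and in replicate 1 for 14, and in NTC replicate 2 for 6. The lowest was in NTC replicate 1 for 21 members and in NTC replicate 4 for 19. In NTC replicate 2, 40 of the 48 tested members were above their own mean, against 3 in NTC replicate 1, 6 in NTC replicate 3 and 4 in NTC replicate 4. NTC replicate 1 also had the highest share of reads outside annotated genes, at 16.9%, against 9.69 to 11.3% in the 7 other libraries. Without NTC replicate 2, 28 members did not overlap between groups, all higher in miR652-KD, against 4.49% of all tested genes, and without miR652-KD replicate 4 the number was 14, against 4.05%.

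The P stalk, the flexible arm made of Rplp0 and dimers of Rplp1 and Rplp2 with Rpl12 at its foot, held the member with the second smallest p. Rplp1 had 1402, 1354, 1408 and 1148 CPM in miR652-KD, against 1058, 1151, 1052 and 1026 CPM in NTC, with 3 of 4 miR652-KD values above every NTC value. Its log2 fold change was 0.31 (SE 0.09, edgeR adjusted p = 0.681). Its partner Rplp2 had 434, 414, 441 and 309 CPM in miR652-KD, against 312, 413, 304 and 292 CPM in NTC, and the highest NTC value, in replicate 2, lay inside the miR652-KD range. All 4 stalk genes had fold changes above 0, with a median of 0.25 on the log2 scale, from 0.10 for Rplp0 to 0.31 for Rplp1, and Rpl12 at 0.23 (SE 0.11).

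The smallest p belonged to Rpl13 (chr8:123102350-123105244, plus strand, GRCm38), a structural protein whose mutation causes a skeletal dysplasia in humans. Rpl13 had 4632, 4489.5, 4838 and 4516 CPM in miR652-KD, against 3653, 4126, 4071 and 3902 CPM in NTC, with no overlap between the groups. Its log2 fold change was 0.23 (SE 0.06, edgeR unadjusted p = 0.004, adjusted p = 0.681). Rpl14 had 1295, 1292, 1327 and 1335 CPM in miR652-KD, against 989, 1226, 1106 and 1034 CPM in NTC. Rpl8, whose loop reaches toward the catalytic centre, had 1138, 1253, 1254 and 1214 CPM in miR652-KD, against 899, 1134, 928 and 1038 CPM in NTC. For both genes all miR652-KD values lay above all NTC values, with log2 fold changes of 0.27 (SE 0.09) and 0.28 (SE 0.09), at an edgeR adjusted p of 0.779 each.

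Further members without overlap were Rpl27, Rpl11, Rpl22l1 and Rpl23a. Rpl27, a human Diamond-Blackfan anaemia gene, had the highest fold change of the members, and it had 404, 413, 422 and 379 CPM in miR652-KD, against 283, 378, 315 and 288 CPM in NTC, so its lowest miR652-KD value lay just above the value of NTC replicate 2. Its log2 fold change was 0.36 (SE 0.11, edgeR adjusted p = 0.779).

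Rpl5 and Rpl11 bind the 5S ribosomal RNA as a particle that, when not built into ribosomes, holds back Mdm2 and so stabilises p53. Rpl11 had 930.0, 847, 906 and 804 CPM in miR652-KD, against 718, 803, 703 and 742 CPM in NTC, without overlap. Rpl5 had 2201, 1799, 2044 and 1847 CPM in miR652-KD, against 1929, 2340.0, 1974 and 1999 CPM in NTC, and the groups overlapped. The log2 fold change was 0.24 (SE 0.08, edgeR adjusted p = 0.781) for Rpl11 and −0.06 (SE 0.10, edgeR adjusted p = 0.999) for Rpl5. Rpl5 and Rpl7l1 (−0.08, SE 0.13) were thus, with Rpl24, the members whose fold change was below 0, and leaving out 1 library turned both signs, to 0.0236 for Rpl5 without NTC replicate 2 and to 0.0048 for Rpl7l1 without miR652-KD replicate 3.

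Around the peptide exit tunnel all 9 listed members had log2 fold changes above 0, with a median of 0.20. The list spans Rpl4 and Rpl17, which line the tunnel, at 0.16 and 0.10, and Rpl23a at its rim at 0.33 (SE 0.22). Rpl4 had 3688, 3339, 3299 and 3720.2 CPM in miR652-KD, against 3059, 3372, 3107 and 3041 CPM in NTC. Its unadjusted p was 0.0463 and its edgeR adjusted p 0.833. Rpl23a had 26.3, 24.3, 27.4 and 24.1 CPM in miR652-KD, against 19.3, 22.1, 20.3 and 19.3 CPM in NTC, and the groups did not overlap. Rpl31, also at the rim and a Diamond-Blackfan anaemia gene, had 534, 517, 524 and 444 CPM in miR652-KD, against 363, 495, 403 and 369.8 CPM in NTC, and NTC replicate 2 lay inside the miR652-KD range.

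Further members with an unadjusted p below 0.05 were Rpl34, Rpl10a and Rpl19. Rpl34 had 804, 755, 796 and 714 CPM in miR652-KD, against 560.2, 749, 631 and 589 CPM in NTC. Rpl10a had 965, 1021, 1056 and 1043 CPM in miR652-KD, against 868, 973, 917 and 859 CPM in NTC. Rpl19, which forms a bridge to the small subunit, had 725, 770.3, 732 and 647 CPM in miR652-KD, against 569, 689.6, 601 and 613 CPM in NTC. In each of the 3 the highest NTC value was that of replicate 2 and lay above at least 1 miR652-KD value, with log2 fold changes of 0.28 (SE 0.11), 0.18 (SE 0.08) and 0.22 (SE 0.09).

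Of the 9 members known from human Diamond-Blackfan anaemia, 8 had fold changes above 0 and 1, Rpl5, below, with a median of 0.22 on the log2 scale. They include Rpl35a, which averaged 225 ± 20.9 CPM in miR652-KD and 193 ± 32.2 CPM in NTC, Rpl26, 690.3 ± 32.8 CPM in miR652-KD and 600.2 ± 85.9 CPM in NTC, and Rpl18, 1351 ± 84.2 CPM in miR652-KD and 1135 ± 113 CPM in NTC (SD, n = 4 each). Rpl18 was among the 13 with an unadjusted p below 0.05, at 0.0232 (log2 fold change 0.25, edgeR adjusted p = 0.801). The members with mouse mutant phenotypes on the list were Rpl24, Rpl27a, Rpl29 and Rpl38. Rpl38, whose loss in the tail-short mouse lowers translation of Hox mRNAs, had 213, 172, 195 and 144 CPM in miR652-KD, against 154, 197, 132 and 138 CPM in NTC. The groups overlapped for all 4 of these, and their log2 fold changes were −0.998 (SE 0.981) for Rpl24, 0.25 (SE 0.12) for Rpl27a, 0.06 (SE 0.10) for Rpl29 and 0.22 (SE 0.17) for Rpl38.

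Genes that build, import or control the large subunit were read from lists beside the members, and by edgeR and by DESeq2 0 genes of each list were called. Of 44 assembly and export factors of the pre-60S particle, 27 had log2 fold changes above 0, the median was 0.08, and 0 had an unadjusted p below 0.05. The smallest p among them belonged to Nop16, a nucleolar factor, at 159 ± 35.3 CPM in miR652-KD and 122 ± 17.5 CPM in NTC, and Bop1, of the complex that processes large-subunit RNA, at 90.3 ± 17.1 CPM in miR652-KD and 64.1 ± 21.6 CPM in NTC (SD, n = 4 each). Of 12 chaperones, importers and 5S particle factors, 4 were above 0, the median was −0.15 and 0 had an unadjusted p below 0.05. The importins Tnpo1 and Kpnb1 had the smallest p there, with log2 fold changes of −0.33 (SE 0.19) and −0.30 (SE 0.18).

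A list of further TOP mRNA genes was meant as non-ribosomal, but it includes Fau, which is also counted among the 33 small-subunit genes. It also shares Npm1 and Nop53 with the assembly factors and Nap1l1 with the chaperones. Of its 22 tested genes, 16 had log2 fold changes above 0, the median was 0.05, and 2 had an unadjusted p below 0.05. These were Naca, which guards new chains at the tunnel exit, at 717 ± 75.3 CPM in miR652-KD and 601 ± 37.4 CPM in NTC, and the initiation factor gene Eif3k, at 480.2 ± 27.7 CPM in miR652-KD and 402 ± 40.1 CPM in NTC (SD, n = 4 each). Eef1a1, the elongation factor that brings aminoacyl-tRNA, had 7581, 6699, 6769 and 6570 CPM in miR652-KD, against 7130, 7545, 6723 and 6432 CPM in NTC, and the groups overlapped. Of 20 genes that control TOP translation or ribosomal protein gene transcription, 8 were above 0 and the median was −0.07. Mycn, a transcription factor of ribosome biogenesis, had a log2 fold change of 0.46 (SE 0.15) and Tbp, the TATA-binding protein, one of −0.82 (SE 0.27), both at an edgeR adjusted p of 0.779, and these were the 2 of the list with an unadjusted p below 0.05.

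All 33 small-subunit genes had log2 fold changes above 0, with a median of 0.17, 0 called and 6 higher at an unadjusted p below 0.05. The smallest p among them belonged to Rps18, at 2845 ± 136 CPM in miR652-KD and 2444 ± 141 CPM in NTC (SD, n = 4 each), with a log2 fold change of 0.22 (SE 0.07, edgeR adjusted p = 0.764). Of 48 tested mitochondrial large-subunit genes, 29 were above 0, with a median of 0.06, 0 called and 1 at an unadjusted p below 0.05, Mrpl42. Rpl36al, a cytosolic large-subunit gene outside the naming rule, averaged 1.21 CPM over the 8 libraries. The differences between the medians of these lists and that of the members were not tested.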

How the data were processed

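Per the labels' protocols, HSCs were sorted into lysis buffer and libraries were made by Smart-seq2. The deposited values are raw read counts, whole numbers for each gene. The submitters' processing notes name HISAT2 (2.1.0), HTSeq (0.11.2), DESeq2 and build mm10. Which annotation release and strand setting were used is not stated there, so reads of genes on opposite strands may not be told apart. The members and lists were chosen with earlier results of these data known.

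Summary lines were left out of library sizes. CPM were computed over all gene rows. Gene identifiers were matched to GENCODE M21 (GRCm38) for 55394 of 55487 rows. Overlaps, transcript lengths and coding sequences came from the same annotation, and promoters from RefSeq (GRCm38.p6). Miscounting through copies was gauged by stretches of 50 bases found in transcripts of genes elsewhere. Annotated pseudogenes among these genes were counted separately.

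Groups were compared in edgeR 4.0.16 under R 4.3.3, using TMM scaling, filterByExpr (minimum count 10, total 15), robust quasi-likelihood fits of group over 14360 genes, Benjamini-Hochberg adjustment and a threshold of 0.05. The fit was also run on simulated counts, with changes larger than the median change of the members, so that run does not cover changes of this size. Fold changes are given as log2 of miR652-KD over NTC, with an SE obtained from the F statistic. Alternatives were RLE scaling, no scaling, DESeq2 1.42.0, other filters, a replicate block, leaving out libraries and other transcript lengths. Sums and medians over members were described without a test. Most members named are those of the role lists, the 5 highest and lowest per length and the 3 most and least variable. Up to 5 members of smallest p per direction were also named. Other lists add the 2 of smallest p per direction, of which some are given. Rpl34, Rpl10a, Rpl23, Eef1a1, the pseudogene copies and the genes overlapping members were named after their values were seen. Rpl28, Rpl37 and Rpl7a were named only for the motifs in their start windows. Libraries held 14017632 to 19894821 gene counts, and without molecular identifiers amplified copies count as reads, so count limits cover counting error only. Of the named members and list genes, 2 are not reported here by name, though counts and medians include them.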

Additional observations from a re-analysis of the deposited data

Results flagged for a closer look

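In groups of 4 libraries, the value farthest from the rest was compared with Dixon's critical value, at the 95% level, for the gap over the range. Chance passes about 1 in 20 if groups are independent, while the members vary together from library to library. Among 101 groups, the values of 5 passed the critical value. Of these, 3 concern NTC replicate 2, the NTC library whose share of member counts lay inside the miR652-KD range. Rpl23 had 960.4 CPM in NTC replicate 2, against 717 to 754 CPM in the other NTC libraries. Rpl27a, whose mutation causes the sooty foot ataxia mouse, had 587 CPM in NTC replicate 2, against 441 to 466 CPM in the others. Rplp2 of the P stalk had 413 CPM in NTC replicate 2, against 292 to 312 CPM in the others.

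Rpl13a had 27.2 CPM in miR652-KD replicate 4, against 38.6 to 39.9 CPM in the other miR652-KD libraries. Rpl3l, the muscle paralog, had 1.98 CPM (29 counts) in miR652-KD replicate 1 and 0 in the other 3 miR652-KD libraries. With 0 in the other 3 libraries any value above 0 passes, so this flag follows from the zeros.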

How the results depend on the processing

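The number of members called was 0 under every alternative run, and the median log2 fold change of the members (0.19) lay between 0.16 and 0.29 when single libraries were left out, and was 0.13 without NTC replicates 3 and 4 together. Members at an unadjusted p below 0.05 numbered 13, against 860 of 14360 tested genes in either direction. Leaving out single libraries they numbered 7 to 32, against 789 to 992 of 14907 to 15065 tested genes. Without NTC replicates 3 and 4 together they numbered 2, against 884 of 15972. The number of genes called over all genes was 6, and 61 with DESeq2 (25 higher and 36 lower). It was 0 with the replicate block, 0 for each library left out (range 0 to 0) and 0 without NTC replicates 3 and 4 together. The cause was not tested. Same-numbered libraries of the groups did not deviate together (correlations −0.033 to −0.010), so the numbers are taken to be names, and the block left 733 genes at an unadjusted p below 0.05, against 860 without it. Members with all miR652-KD values above all NTC values numbered 8, against 2.35% of all tested genes, and 5 on TMM-scaled CPM, against 2.26%. Leaving out single libraries, they numbered 8 to 28, against 3.58 to 4.49%. Without NTC replicates 3 and 4 together they numbered 9, against 7.36% of all tested genes. The reference transcript length, the comparison of variability within the 200 and 500 most abundant genes and the alternatives for the members without overlap were chosen after seeing the data. Signs turned for Rpl22 (−0.13) and Rpl41 (−0.0022) without NTC replicates 3 and 4 together, for Rpl5 without NTC replicate 2 (0.0236; range over libraries left out −0.12 to 0.0236) and for Rpl7l1 without miR652-KD replicate 3 (0.0048; range −0.14 to 0.0048). The median per-length level of the members was 825 TPM with merged exons, 1039 TPM with the longest protein-coding transcript and 1545 TPM with the reference transcript, as the length alone was changed. The difference in share of gene counts (0.552 percentage points) ranged from 0.470 to 0.718 when single libraries were left out. Depth limits Rpl24, Rpl3l and the paralogs at 0 counts; the other members had at least 19.3 CPM in each library.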
